A study of Homo sapiens with 10 samples.

Results

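Noncoding host genes of small nucleolar RNAs (snoRNAs) were examined in MEG-01, a leukemia line of human megakaryoblasts, after transfection with miR-1225-3p. The 8 genes were SNHG1, SNHG3, SNHG5, SNHG6, SNHG7, SNHG8, SNHG12 and GAS5, taken by name, and they were 8 of the 17379 genes tested and 9 of the 42405 probes on the array, since SNHG7 had 2 probes. On 5 arrays the RNA came from cells that had received 200 nM of miR-1225-3p precursor (miR-1225-3p group, n = 5), and on 5 from cells that had received a negative control precursor of random sequence (scrambled group, n = 5). Both groups were the same cell line, were transfected by Nucleofection, and were collected after 24 hours, so the cells of both groups had gone through the electrical pulse and carried a synthetic precursor. Each of the 10 arrays was an Agilent one-color gene expression array hybridized with labeled RNA from 100 ng of total RNA. The question was how RNA levels in megakaryocytic cells change when this miRNA is raised. The labels call the 5 samples of a group biological replicates without saying whether they came from separate cultures. The p-values therefore set the group difference against the spread within these groups, and whether that spread covers separate transfections is not known.

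The transfected miRNA is shown because it is what separates the groups. Its mature sequence in RefSeq, 22 bases from chr16:2090195-2090216 on the minus strand of GRCh38.p14, has its seed, bases 2 to 8, in capitals.
hsa-miR-1225-3p: uGAGCCCCugugccgcccccag
Transcript sequences of the host genes were not used here, so no search for seed matches in them was made.

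A snoRNA host gene is transcribed as a long precursor, its exons are spliced together, and its introns are trimmed to release snoRNAs. Box C/D snoRNAs guide 2′-O-methylation of ribosomal RNA, and box H/ACA snoRNAs guide pseudouridylation. Many hosts code for ribosomal proteins or translation factors, but the 8 genes described here have spliced exons with no known conserved protein, and their spliced RNA is known to be removed in part by nonsense-mediated decay, a pathway that acts on transcripts whose reading frame stops early. GAS5 was named for its rise in growth-arrested cells, and GAS5 is known as a 5′ terminal oligopyrimidine (TOP) gene, a gene whose RNA starts with a run of C and T bases that ties it to growth control through mTORC1.

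The annotated starts of 7 host genes are shown so that the letters where a TOP run would lie can be read. Each line gives 10 bases before the RefSeq start and 20 from it, on the gene's own strand, with the longest unbroken run of C and T in capitals.
SNHG1: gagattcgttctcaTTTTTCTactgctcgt
SNHG3: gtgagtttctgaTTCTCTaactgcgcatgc
SNHG5: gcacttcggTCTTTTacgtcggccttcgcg
SNHG7: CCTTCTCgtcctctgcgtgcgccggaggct
SNHG8: ctcggCCTTTCacattcgggaagcgtcggg
SNHG12: gcttcagcgCCCTTTCTCCCCgccgcattc
GAS5: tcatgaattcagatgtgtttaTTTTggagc
These windows lie, in GRCh38.p14 from RefSeq, at chr11:62855866-62855895 (minus strand) for SNHG1, chr1:28505933-28505962 (plus) for SNHG3, chr6:85678714-85678743 (minus) for SNHG5, chr9:136728165-136728194 (minus) for SNHG7, chr4:118278752-118278781 (plus) for SNHG8, chr1:28581854-28581883 (minus) for SNHG12 and chr1:173869026-173869055 (minus) for GAS5. SNHG6 is named here without a sequence.

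The longest run of a window covered the RefSeq start in SNHG12 and SNHG5, where it began 1 base before the start, and in SNHG8, where it began 5 bases before it. In SNHG7 it began 10 bases before the start, at the edge of the window, where it may be cut off, and ended ahead of the start. In SNHG3, SNHG1 and GAS5 it began after the start, at bases 3, 5 and 12 of the transcript. A shorter run of C and T covered the start in SNHG7 and in SNHG1. The SNHG12 window held the longest run of the 7, 12 bases, and 2.46% of 27305 promoters held a run at least as long in the same window. The runs of SNHG1 and SNHG7 were 7 bases long, a length reached by 19.1% of promoters, and those of SNHG3, SNHG5 and SNHG8 were 6 bases long, a length reached by 30.1%. The longest run in the GAS5 window was 4 bases, a length reached by 70.6%, and it did not lie at the annotated start. The median run was 6 bases over the 7 host genes and 4 over all promoters. The sequence CACGTG, which reads the same on both strands and is the core letters bound by MYC and related factors, was in the 300-base promoter of 1 of the 7, SNHG7, and in 7.43% of all promoters. Start sites were not measured by these arrays, and a match in these windows is a description of the letters there.

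The arrays were usable for these genes throughout. Spots well above background made up 41.95% to 53.85% of each miR-1225-3p array and 43.09% to 61.18% of each scrambled array, and all 9 host probes were well above background on all 10 arrays with no saturated or outlier-flagged spot. Of 8 megakaryocytic markers, 3 were well above background on all 10 arrays and 1 on none, and the megakaryocytic integrin gene ITGA2B had a log2 fold change of -1.39 (SE 0.472, adjusted p = 0.0437 from limma), with 7.50 to 10.25 in the miR-1225-3p group and 9.26 to 10.51 in the scrambled group, a call kept in 1 of 10 omissions of an array, that of miR-1225-3p replicate 5. All 5 megakaryocytic markers tested had an estimate below 0, with a median log2 fold change of -1.20. At an unadjusted limma p under 0.05, 5 were lower, although ITGA2B alone passed the adjusted threshold. GP1BA, 1 of the 5, was well above background on 1 miR-1225-3p array and 3 scrambled arrays, so it was kept for the scrambled group alone. The log2 of the summed signal of the 5 markers was 9.505 to 11.32 in the miR-1225-3p group and 10.88 to 11.67 in the scrambled group. In the miR-1225-3p group replicate 5 was highest, with the next array at 10.57. Of 3 lymphoid markers, 2 were on no array well above background. CD3E was so on 3 miR-1225-3p arrays and 1 scrambled array, so it was kept for the miR-1225-3p group alone. Its estimate was 1.96 (SE 0.601). Of 2 monocytic markers, 1 had a probe, CD14, which was well above background on all 10 arrays, at 0.36 (SE 0.391, adjusted p = 0.475 from limma). The fetal globin gene HBG1 and 2 other erythroid markers were above background on all 10 arrays, and 0 of the 3 were called by limma or by the methods' t-test, with 1 lower at an unadjusted limma p under 0.05. Whether the changed markers have a part in the host gene values was not tested, and in RNA of whole cultures fewer cells of a type and less RNA per cell cannot be told apart.

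All 8 host genes had a point estimate above the scrambled group, and 2, SNHG7 and SNHG12, were upregulated at an adjusted p under 0.05 (limma, Benjamini-Hochberg over 17379 genes). The background share of all genes called upregulated was 17%, and of all genes called in either direction 35%, so 2 of 8 is a share near the background. The arrays of the 2 groups did not overlap for 3 host genes, SNHG7, SNHG8 and SNHG12, each higher with miR-1225-3p, against 7.95% of all genes. The median log2 fold change was 0.25 over the 8 host genes and -0.06 over all genes tested, of which 46.7% had a point estimate above 0. No host gene passed a 2-fold change, and the range was 0.03 to 0.56 on the log2 scale. The host genes varied little between arrays, with a median SD of 0.133 in the miR-1225-3p group and 0.0775 in the scrambled group, where the medians over all genes were 0.438 and 0.249.

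**Figure D1:**
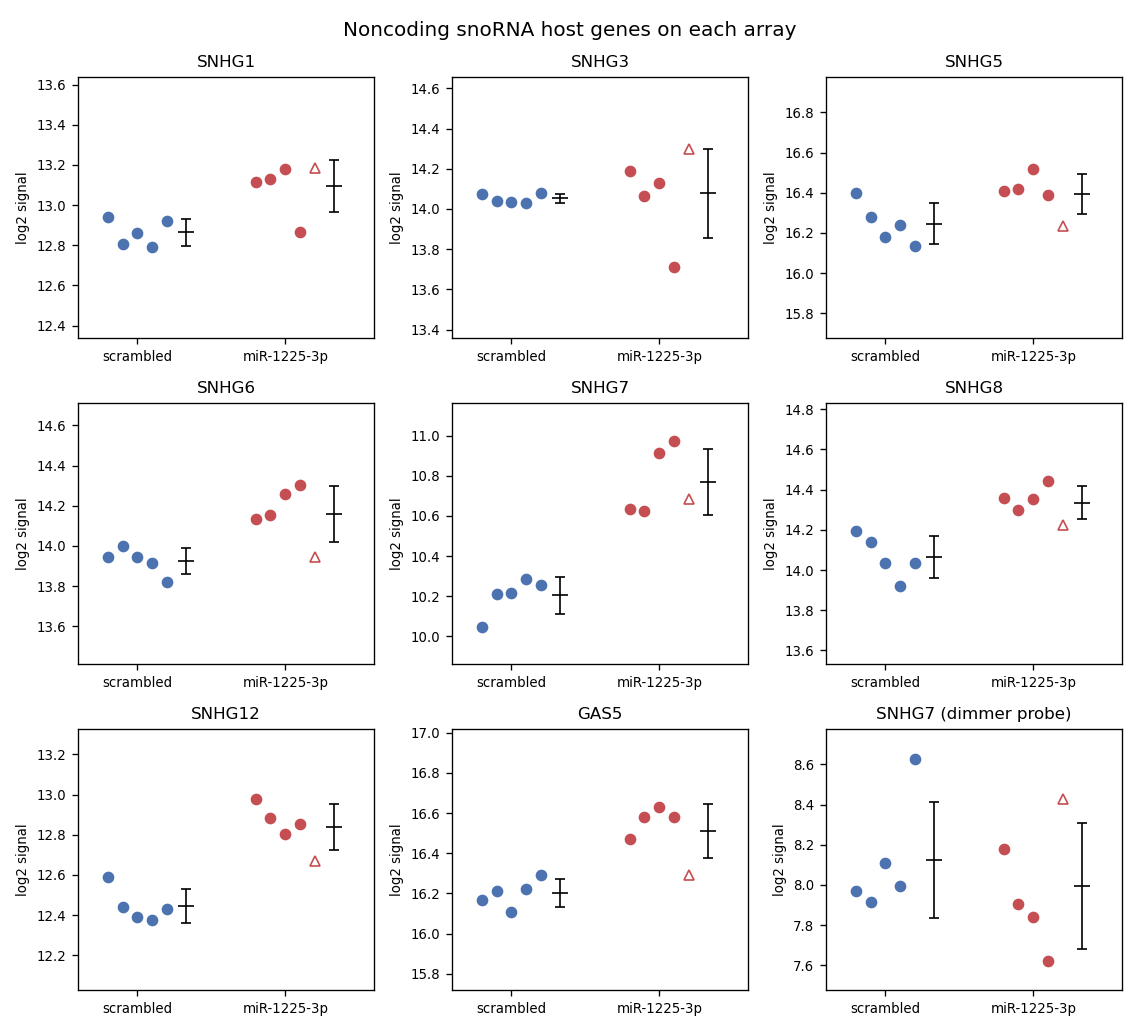
Normalized log2 signal of each of the 8 host genes, and of the dimmer SNHG7 probe, on the 5 scrambled (blue) and 5 miR-1225-3p (red) arrays, with the open triangle for miR-1225-3p replicate 5 and the black bar for the group mean ± SD. Every panel spans the same height on the log2 scale; SNHG7, SNHG8 and SNHG12 show groups that do not overlap, and the dimmer SNHG7 probe shows groups that do.

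SNHG7, whose introns carry the H/ACA snoRNAs SNORA17 and SNORA43, had the highest estimate of the 8. Its brighter probe, A_33_P3280927 for transcript NR_024542, read 10.64, 10.63, 10.91, 10.97 and 10.68 (log2 signal) on miR-1225-3p arrays 1 to 5, and 10.05, 10.21, 10.22, 10.29 and 10.26 on scrambled arrays 1 to 5. The lowest miR-1225-3p array lay 0.34 above the highest scrambled array. The log2 fold change was 0.56 (SE 0.124, 95% interval 0.29 to 0.84, adjusted p = 0.0151 from limma), a 1.48-fold rise, with an exact permutation p of 0.00794, which is the smallest that 5 against 5 arrays can give.

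The dimmer SNHG7 probe, A_24_P352116 for transcript NR_003672, did not show this. It read 8.18, 7.90, 7.84, 7.62 and 8.43 with miR-1225-3p and 7.97, 7.92, 8.11, 7.997 and 8.63 in the scrambled group. Those groups overlapped, at a log2 fold change of -0.13 (SE 0.195, 95% interval -0.56 to 0.30, adjusted p over probes = 0.611 from limma). The log2 ratio of the brighter to the dimmer probe was 2.26 to 3.35 on the miR-1225-3p arrays and 1.63 to 2.30 on the scrambled arrays. The changes of the 2 probes differed by 0.69 (exact permutation p = 0.0238, and 0.0238 after adjustment over 3 such ratios), with 4 of 5 miR-1225-3p arrays above the highest scrambled array and replicate 5 inside the scrambled range. The SNHG7 rise was therefore seen with 1 of its 2 probes, and with the mean of both probes it was 0.22 (adjusted p = 0.193 from limma).

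SNHG12, which carries SNORD99, SNORA16A, SNORA44 and SNORA61, was the other gene upregulated. It read 12.98, 12.89, 12.80, 12.86 and 12.67 on the miR-1225-3p arrays and 12.59, 12.44, 12.39, 12.37 and 12.43 on the scrambled arrays. The groups did not overlap, with the lowest miR-1225-3p array 0.08 above the highest scrambled one. SNHG12 had a log2 fold change of 0.39 (SE 0.114, 95% interval 0.14 to 0.65, adjusted p = 0.0266 from limma), a 1.31-fold rise with an exact permutation p of 0.00794. SNHG12 lost the call on omission of any 1 of 6 arrays (replicates 1, 2 and 3 with miR-1225-3p, replicates 2, 3 and 4 with the control), with estimates between 0.36 and 0.44 over the 10 omissions, whereas SNHG7 was called in each of the 10.

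GAS5, which carries 10 of the box C/D snoRNAs listed here, just missed the call. It read 16.47, 16.58, 16.63, 16.58 and 16.29 with miR-1225-3p and 16.17, 16.21, 16.11, 16.22 and 16.29 in the scrambled group. Of the miR-1225-3p arrays, 4 lay above every scrambled array, and replicate 5 was level with scrambled replicate 5 (difference -0.000642). GAS5 had a log2 fold change of 0.31 (SE 0.116, 95% interval 0.05 to 0.57, adjusted p = 0.0563 from limma, exact permutation p = 0.0159). Without miR-1225-3p replicate 5 it was 0.37 (adjusted p = 0.00982 from limma).

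SNHG8, which carries SNORA24, had groups that did not overlap and still missed the adjusted threshold. The miR-1225-3p arrays read 14.36, 14.30, 14.35, 14.44 and 14.22, and the scrambled arrays 14.20, 14.14, 14.04, 13.92 and 14.03. The gap between the groups was 0.03, and the log2 fold change 0.27 (SE 0.113, 95% interval 0.02 to 0.52, adjusted p = 0.0785 from limma, exact permutation p = 0.00794). Without miR-1225-3p replicate 5 it passed, at 0.30 (adjusted p = 0.0315 from limma).

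SNHG6, the host of SNORD87, and SNHG1, the host of a row of box C/D snoRNAs from SNORD22 to SNORD31, had nearly equal estimates. SNHG6 read 14.13, 14.15, 14.26, 14.30 and 13.95 with miR-1225-3p and 13.95, 14.00, 13.95, 13.91 and 13.82 without it. Its log2 fold change of 0.23 (SE 0.117, 95% interval -0.02 to 0.49) did not pass (adjusted p = 0.126 from limma, exact permutation p = 0.0238), and replicate 5 was the 1 miR-1225-3p array inside the scrambled range. Without replicate 5, SNHG6 passed at 0.29 (adjusted p = 0.0298 from limma).

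SNHG1 read 13.11, 13.13, 13.18, 12.87 and 13.18 with miR-1225-3p and 12.94, 12.81, 12.86, 12.79 and 12.92 in the scrambled group. Here replicate 4, not replicate 5, lay inside the scrambled range. The log2 fold change was 0.23 (SE 0.115, 95% interval -0.03 to 0.49, adjusted p = 0.128 from limma, exact permutation p = 0.0238).

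SNHG5, the host of SNORD50A and SNORD50B, read 16.41, 16.42, 16.52, 16.39 and 16.23 on the miR-1225-3p arrays and 16.40, 16.28, 16.18, 16.24 and 16.13 on the scrambled arrays. Of the miR-1225-3p arrays, 3 lay above all scrambled arrays, replicate 1 of them by the least. SNHG5 had a log2 fold change of 0.15 (SE 0.115, 95% interval -0.11 to 0.40, adjusted p = 0.309 from limma, exact permutation p = 0.0714).

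SNHG3 had the lowest estimate. Its scrambled arrays were the most alike of any host gene, at 14.08, 14.04, 14.04, 14.03 and 14.08, and its miR-1225-3p arrays were the most spread, at 14.19, 14.07, 14.13, 13.71 and 14.30. Of the latter, 3 lay above all scrambled arrays and replicate 4 lay below all of them. The log2 fold change was 0.03 (SE 0.133, 95% interval -0.27 to 0.32, adjusted p = 0.881 from limma, exact permutation p = 0.833), and it was -0.03 without replicate 5 and 0.12 without replicate 4. A change of this size was not detectable with these arrays, and the interval leaves room for a change of either sign.

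Counted by single genes, 6 of 8 host genes had an unadjusted exact permutation p under 0.05, each higher with miR-1225-3p, where 23% of all genes did so in that direction. By unadjusted limma p it was 4 of 8, against 49.1% of all genes in either direction. Read by array, the medians of the 5 miR-1225-3p arrays lay above those of all scrambled arrays. The median deviation of the 8 genes from their scrambled means was 0.26, 0.25, 0.32, 0.38 and 0.19 on miR-1225-3p arrays 1 to 5, and 0.05, 0.01, -0.02, -0.02 and 0.01 on scrambled arrays 1 to 5. Between 7 and 8 host genes lay above their scrambled mean on each miR-1225-3p array. The exceptions were SNHG3 on replicate 4, at -0.34, and SNHG5 on replicate 5, at -0.01. The 8 genes share the same arrays, so they are not independent observations of the treatment.

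How large the shift came out depended on the scaling between arrays. Subtracting each array's 75th percentile gave 8 of 8 host genes upregulated with a median of 0.89, where 26.3% of all genes were called higher and the median of all genes was 0.16. Quantile normalization gave 5 of 8 and a median of 0.43 (20.9% of all genes called higher), and no scaling gave 0 of 8 with a median of 0.47 (1% of all genes). The host probes, all but that of SNHG7, were among the brightest, and among the 1262 genes with a probe at least as bright as that of SNHG12 the median change was -0.09, 0.57, 0.08 and 0.14 under cyclic loess, the 75th percentile, quantile and no scaling. All 8 host genes lay above that median under each of the 4, and 12%, 47.9%, 16.6% and 1.51% of those bright genes were called higher. The share of all genes called upward therefore moved with the host genes, and the direction of the 8 estimates did not flip under these 4 scalings. In the authors' own normalized values SNHG3 was at -0.04 (adjusted p = 0.828 from limma) and 3 of 8 were called higher, against 18% of all genes. Without miR-1225-3p replicate 5, 5 of 8 were called higher, SNHG6, SNHG8 and GAS5 joining SNHG7 and SNHG12, and so were 26.4% of all genes.

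**Figure D2:**
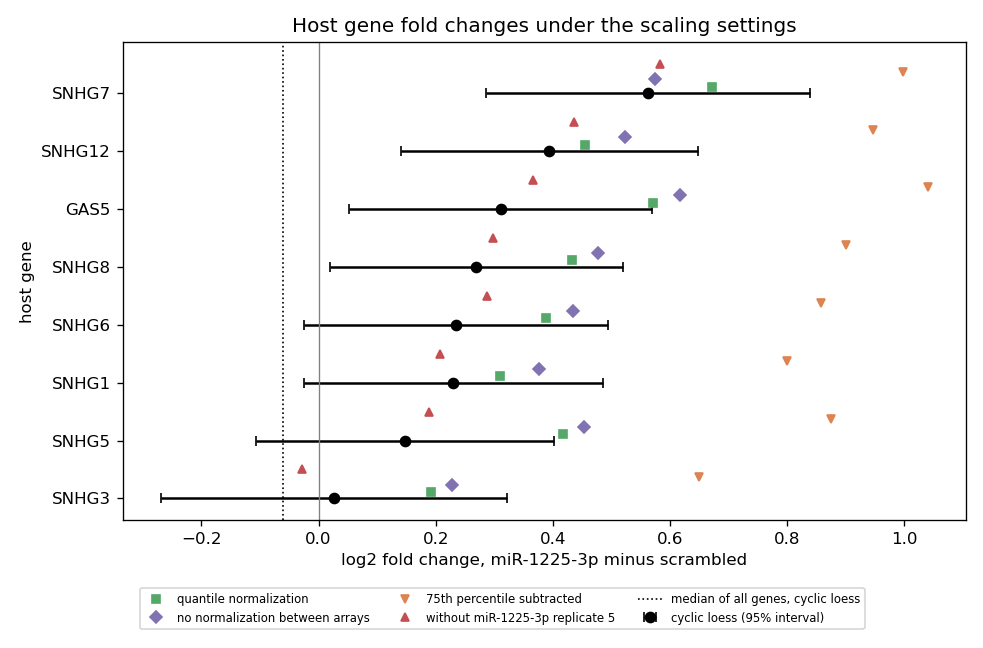
Log2 fold change of each host gene, miR-1225-3p minus scrambled, with the 95% interval under cyclic loess (black), and the estimate under 3 other scalings and without miR-1225-3p replicate 5 as colored symbols. The dotted line is the median of all genes under cyclic loess, at -0.06; estimates after subtraction of the 75th percentile lie farthest to the right for all 8 genes, and leaving out replicate 5 places SNHG3 just below 0.

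Slide 1 held 2 arrays with miR-1225-3p and 3 with the control, and slide 2 held 3 and 2. With slide as a block, SNHG7 was at 0.53 (adjusted p = 0.0214 from limma) and SNHG12 at 0.42 (adjusted p = 0.0309). Within slide 1 the 2 genes were at 0.46 each, with adjusted p of 0.0992 and 0.0982 from limma, and within slide 2 they were at 0.61 and 0.37, with adjusted p of 0.494 and 0.496. All 8 point estimates were above 0 within each slide, with medians of 0.24 and 0.28, and 0 of 8 were called within either slide by limma, where 2 and 0 of 8 had an unadjusted p under 0.05. Over all genes, 25.9% were called within slide 1 and 0% within slide 2.

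Of the snoRNAs these 8 genes carry, 2 had a probe, SNORA73A and SNORA73B, both from introns of SNHG3 and both H/ACA snoRNAs. Unlike SNHG3, both were far below the scrambled group on 4 of 5 miR-1225-3p arrays. SNORA73A read 7.39, 6.88, 7.32, 6.42 and 10.78 on the miR-1225-3p arrays and 11.10, 11.38, 10.79, 11.08 and 10.03 on the scrambled arrays, so replicate 5 lay inside the scrambled range. Its log2 fold change was -3.12 (SE 0.719, adjusted p = 0.0162 from limma), and -3.88 without replicate 5.

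SNORA73B read 8.66, 8.33, 8.47, 7.90 and 11.00 with miR-1225-3p and 11.53, 11.39, 10.97, 11.17 and 10.55 in the scrambled group. The log2 fold change was -2.25 (SE 0.515, adjusted p = 0.0160 from limma), and -2.79 without replicate 5, with a second probe at -2.51. Both snoRNAs were called in 28 of 30 alternatives. They are near-identical copies, so their probes may share signal, and a probe inside a snoRNA also lies inside the unspliced SNHG3 RNA.

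The log2 ratio of SNHG3 to SNORA73A was 3.52 to 7.29 on the miR-1225-3p arrays and 2.66 to 4.05 on the scrambled arrays. The changes of SNHG3 and SNORA73A thus differed by 3.15 (exact permutation p = 0.0159), and those of SNHG3 and SNORA73B by 2.28 (exact permutation p = 0.0159), each 0.0238 after adjustment over the 3 ratios. In both ratios 4 of 5 miR-1225-3p arrays lay above all scrambled arrays. The SNHG3 probe and the intronic snoRNA probes of the same locus therefore changed unequally on those 4 arrays. Whether the snoRNA probes read the released snoRNA or a longer RNA of the locus was not tested.

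**Figure D3:**
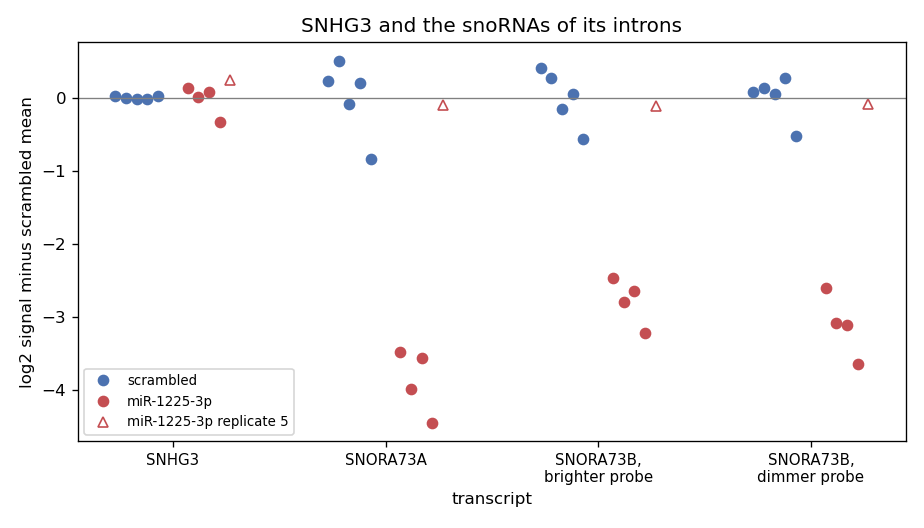
Log2 signal of SNHG3 and of the snoRNA probes of its introns on each array, as the difference from the mean of the 5 scrambled arrays (blue, scrambled; red, miR-1225-3p; open triangle, miR-1225-3p replicate 5). SNHG3 lies near 0 on all 10 arrays, with its lowest value at -0.34 on miR-1225-3p replicate 4, while the snoRNA probes lie far below 0 on 4 of 5 miR-1225-3p arrays and near 0 on replicate 5.

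Among other noncoding snoRNA hosts, of 17 listed, 11 had a probe and 10 were tested. Of the 9 that were well above background on all 10 arrays, 3 rose and 0 fell by limma, against 17% of all genes called higher, and the median of the 10 tested was 0.07. By the methods' t-test 3 of the 10 were called higher and 1 lower. At an unadjusted limma p under 0.05, 3 of the 10 were higher and 3 lower. The lower genes take in SNHG20, which had no miR-1225-3p array well above background, so these counts are not read as a fall of it. The genes that rose were SNHG10, at 0.69 (SE 0.172, adjusted p = 0.0190 from limma), SNHG9, at 0.40 (SE 0.122, adjusted p = 0.0321), and SNHG17, at 0.35 (SE 0.115, adjusted p = 0.0413). Their groups did not overlap. On omission of 1 array SNHG10 kept its call in 9 of 10, and SNHG9 and SNHG17 in 1 of 10, that without miR-1225-3p replicate 5. SNHG20 was not well above background on any miR-1225-3p array and was so on 4 scrambled arrays, so it was kept for the scrambled group alone. Its scrambled mean was 2.39-fold above a floor set for the miR-1225-3p arrays, and the arrays of the 2 groups overlapped. No p-value is given for it, since its miR-1225-3p values were not well above background. On each miR-1225-3p array this floor was the lowest signal of a probe well above background, or the gene's own value where that was larger. The fold does not take the spread between arrays into account. Of the genes not called, SNHG29 was at -0.64 (SE 0.229, adjusted p = 0.0518 from limma) and DANCR at -0.46 (SE 0.204, adjusted p = 0.0974). Both were well above background on all 10 arrays and were lower at an unadjusted limma p under 0.05. SNHG17, SNHG20, SNHG29 and DANCR were chosen for naming after their values were seen.

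Protein-coding snoRNA hosts had a median below that of all genes. Of 41 tested, 3 rose, 3 fell and 35 were not called, which is 14.6% called against 35% of all genes, with a median of -0.23 and 8 estimates above 0. Of the 3 that fell, 1 was well above background on all 10 arrays. The split depended on the processing. It was 15 higher and 2 lower after subtraction of the 75th percentile, 0 and 1 with no scaling, and 1 and 7 with the mean of kept probes. Over all genes, 41.1%, 7.28% and 34.9% were called in either direction, in that order. The 22 ribosomal protein genes among the protein-coding hosts had a median of -0.24 and 2 estimates above 0. By limma and by the methods' t-test 0 of the 22 were called, and 3 were lower at an unadjusted limma p under 0.05. NCL, which codes for nucleolin, read 13.62 to 14.21 with miR-1225-3p and 13.46 to 13.64 without it, at 0.42 (SE 0.133, adjusted p = 0.0345 from limma). HSPA8, which codes for a heat shock cognate chaperone, fell by 1.29 (SE 0.402, adjusted p = 0.0346 from limma), although replicate 5, at 12.77, lay above all scrambled arrays, which read 12.17 to 12.71. HSPA8 had an adjusted p of 0.0608 by the methods' t-test. NCL and HSPA8 each kept the call in 1 of 10 omissions of an array, that of replicate 5.

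The proteins that bind released snoRNAs were measured by 8 core genes, of which 3 rose and 0 fell, by limma and by the methods' t-test, with a median of 0.29 and with 4 higher and 0 lower at an unadjusted limma p under 0.05. That is 37.5% called, near the 35% of all genes in either direction, and above the 17% called higher. With the mean of kept probes, and in the authors' values, 1 of 8 was called. The count moved with the scaling, with 8 higher after subtraction of the 75th percentile, 4 with quantile normalization and 0 with no scaling. Of all genes, 26.3%, 20.9% and 1% were called higher under these scalings. NOP56, a box C/D core protein and itself a host, was at 0.63 (SE 0.162, adjusted p = 0.0203 from limma) with its brighter probe, and at -1.13 (adjusted p over probes = 0.0227) with its other probe, so its direction is uncertain. DKC1, the pseudouridine synthase of H/ACA particles, was at 0.40 (SE 0.140, adjusted p = 0.0494), and NHP2, of the same particles, was at 0.33 (SE 0.110, adjusted p = 0.0408). The groups did not overlap for DKC1 and NHP2, but both kept the call in 1 of 10 omissions of an array, that of replicate 5, and in the authors' values the adjusted p was 0.0834 for DKC1 and 0.0518 for NHP2. FBL, the methyltransferase of box C/D particles, was at 0.03 (SE 0.102, adjusted p = 0.840).

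Of 11 assembly factors tested, 2 rose and 2 fell, with a median of 0.29. The 36.4% called was near the background of 35%. PIH1D1 was at 0.76 and ZNHIT3 at 0.69, both parts of the assembly of box C/D particles. RUVBL2, an AAA+ ATPase that acts in the same assembly, fell by 1.90 (SE 0.537, adjusted p = 0.0262 from limma), and NOLC1, a chaperone of particles on their way through the nucleolus, fell by 1.46 (SE 0.368, adjusted p = 0.0194). Each of these 4 had replicate 5 close to the scrambled group and the other 4 arrays apart from it. On omission of 1 array NOLC1 kept its call in 8 of 10, RUVBL2 in 4, PIH1D1 in 3 and ZNHIT3 in 1, that without replicate 5.

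Of 19 nonsense-mediated decay factors, 4 rose and 1 fell, with a median of 0.16. The 26.3% called was below the background of 35%. NCBP1, the large subunit of the nuclear cap-binding complex, was at 1.25 (SE 0.266, adjusted p = 0.0147 from limma), and MAGOH, a core protein of the exon junction complex, was at 0.91 (SE 0.153, adjusted p = 0.0136), each with groups that did not overlap. CASC3, also of the exon junction complex, fell by 0.91 (SE 0.216, adjusted p = 0.0172). All 3 were called in each of the 10 omissions of an array.

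Of 20 protein-coding TOP genes of translation, 0 rose and 3 fell by limma, which is 15% called against 35% of all genes, with a median of -0.22, while 2 were higher and 8 lower at an unadjusted p under 0.05 and the methods' t-test called 2 higher and 3 lower. The direction of the calls flipped with the scaling. After subtraction of the 75th percentile 9 were higher and 1 lower, and with quantile normalization 2 and 1. With no scaling it was 0 and 1, and in the authors' values 1 and 4. Of all genes, 41.1%, 35.4%, 7.28% and 39.7% were called in either direction, in that order. EEF2, the elongation factor of ribosome translocation, fell by 2.85 (SE 0.743, adjusted p = 0.0213 from limma), reading 9.59 to 11.47 on 4 miR-1225-3p arrays, 14.48 on replicate 5 and 13.88 to 14.46 on the scrambled arrays. VIM, which codes for vimentin, fell by 0.62 (SE 0.152, adjusted p = 0.0184), though it was at 0.10 after subtraction of the 75th percentile.

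Of 15 genes that act in mTORC1 signalling and TOP translation, 2 rose and 2 fell, with a median of 0.03. The 26.7% called was below the background of 35%. TSC1, a brake on mTORC1, was at 0.71 (SE 0.134, adjusted p = 0.0136 from limma). RHEB, the activator that the TSC1 complex acts on, was at 1.06 (SE 0.198, adjusted p = 0.0136), well above background on 9 arrays. Both were called in each of the 10 omissions of an array. AKT1S1, an inhibitor within mTORC1, fell by 1.07 (SE 0.340, adjusted p = 0.0367 from limma), with replicate 5, at 7.66, inside the scrambled range of 7.36 to 7.68 and an adjusted p of 0.0618 by the methods' t-test. LARP1, a protein that binds TOP starts, fell by 0.43 (SE 0.151, adjusted p = 0.0491), though it was at 0.10 after subtraction of the 75th percentile. AKT1S1 and LARP1 each kept the call in 1 of 10 omissions, that of replicate 5.

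Over the 7 related lists together, 118 genes were tested, 15 rose and 12 fell, which is 22.9% against the background of 35% over all genes. In that union the median was -0.07. The split depended on the scaling. After subtraction of the 75th percentile 48 rose and 8 fell, and with quantile normalization 20 and 8. With no scaling it was 0 and 3, and in the authors' values 13 and 17. Over all genes, 41.1%, 35.4%, 7.28% and 39.7% were called in either direction, in that order. The list medians given here are those under cyclic loess. Without miR-1225-3p replicate 5 the calls were 27 higher and 38 lower, where 55.4% of all genes were called. Without replicate 3 they were 4 higher and 1 lower, where 13% of all genes were called.

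**Figure D4:**
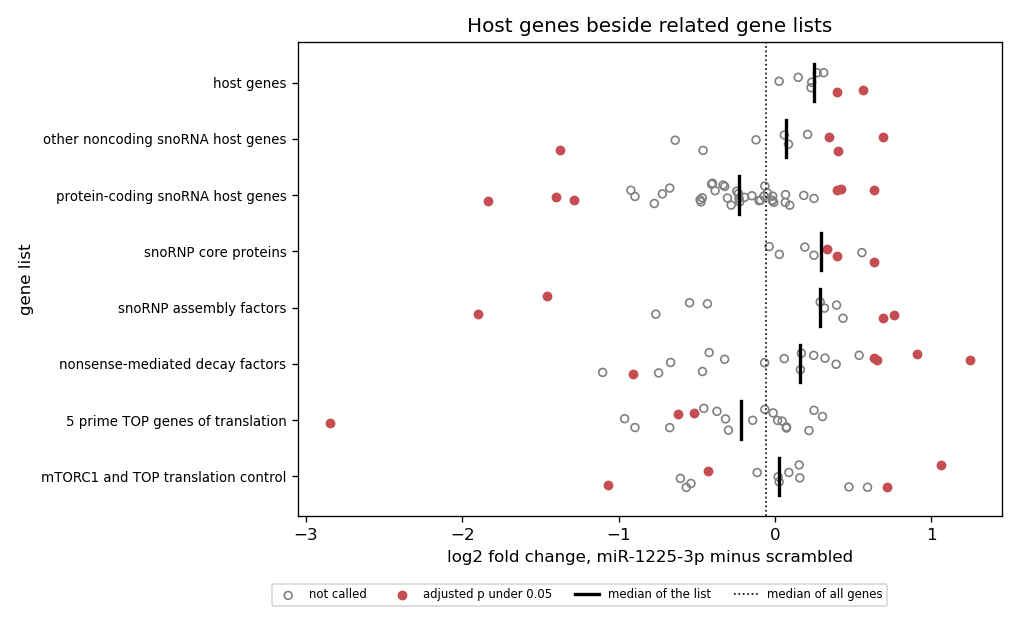
Log2 fold change, miR-1225-3p minus scrambled, of each tested gene in the 8 host genes and in 7 related lists, with filled points for an adjusted p under 0.05, the black bar for the median of a list and the dotted line for the median of all genes. The 8 host genes lie between 0.03 and 0.56 while the protein-coding hosts and the TOP genes of translation have medians of -0.23 and -0.22.

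Genes beside the hosts on the chromosome were looked up next. The nearest or overlapping protein-coding genes numbered 20, of which 9 were tested, with a median of -0.30. RCC1, which shares its locus with SNHG3, was at -0.30 (SE 0.242, adjusted p = 0.328 from limma), and DIPK1B, which overlaps SNHG7, was at -0.47 (SE 0.169, adjusted p = 0.0507). WDR74, beside SNHG1, was at -0.84 (SE 0.421, adjusted p = 0.134).

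TRNAU1AP, which overlaps SNHG12 and acts in selenocysteine incorporation, was at 0.98 (SE 0.291, adjusted p = 0.0296 from limma) and kept this call in 2 of 10 omissions of an array. ZBTB37, which overlaps GAS5, was not well above background on any miR-1225-3p array and was so on 3 scrambled arrays, so it was kept for the scrambled group alone. Its scrambled mean was 2.76-fold above a floor set as for SNHG20, and the arrays of the 2 groups overlapped, so no p-value is given. Overlap on the chromosome does not say whether probes of 2 genes share a strand.

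Profiles across the 10 arrays were compared with those of 11990 other genes after centring, by the root mean square difference. The nearest profile was TBX19 for SNHG1 (0.0303 on the log2 scale), FAM120A for SNHG3 (0.0750), CA8 for SNHG6 (0.0411), IGFBP7 for SNHG7 (0.0756), PMCH for SNHG8 (0.0481) and FBXO31 for GAS5 (0.0466). For SNHG5 the nearest and the second nearest were both probes designed for a lincRNA on chromosome 6, at 0.0311 and 0.0495, and whether they lie in SNHG5 was not tested. For SNHG12 the nearest was a transcript with no gene symbol, at 0.0572. A gene with so little variation can find a near profile among so many, and nothing on shared control follows from these values.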

How the data were processed

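The authors deposited, per array, Agilent Feature Extraction 10.7.3.1 output, in which the processed intensity has the background removed, and a table of 29271 probes with normalized log2 values. Titles gave the groups, since a source label lists the control samples without treatment. Processed intensities were taken to log2 and scaled by cyclic loess with 3 iterations (limma 3.58.1, R 4.3.3). Left out were 4259 control spots and outlier-flagged spots, and repeated spots were averaged. A probe was kept (20648 were) if at least 3 arrays of 1 group had it well above background, and the brightest kept probe stood for a gene. Of 42405 probes, 24910 matched a RefSeq symbol (GRCh38.p14), and the others keep the array design's name. Groups were compared with limma (lmFit, eBayes), adjusted over 17379 genes at 0.05, and single genes with two-sided exact permutation tests. The number of arrays limits the precision. In a simulation of these 5 against 5 arrays with 17379 genes, 35 of 100 planted changes of 1 and 82 of 100 of 2 on the log2 scale were called. Far fewer genes were changed there than the 35% called in the data, and the host genes varied less than the median gene. These shares therefore do not give the chance of calling a change in a host gene.

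The members and the gene lists were chosen with earlier results of these data known. Named were all host probes, from each list the 2 largest rises and falls among called genes well above background on all 10 arrays, chromosomal neighbours, snoRNAs with a probe, and the nearest profile of each host. NHP2, FBL, RHEB and CD14 fall outside this rule and were named after their values were seen. The markers CD3E, HBG1 and GP1BA were likewise named outside the rule. Alternatives covered scaling, background correction (normexp on the median signal, offset 50), the authors' values, filters, flags, the probe for a gene, the test, replicate and slide blocks, and leaving out each array. Of these, 2 were chosen after seeing the data: subtracting the median of all genes, and slide 2 without miR-1225-3p replicate 5. No value columns of other series were present. Replicate numbers did not pair the arrays (correlations of deviations -0.40 to 0.07).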

Additional observations from a re-analysis of the deposited data

Results flagged for a closer look

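In 18 groups of 5 arrays (9 host probes in each of the 2 groups) the highest and lowest arrays were tested against the others, and chance marks about 1 group in 20. Of these, 2 stood apart. SNHG1 on miR-1225-3p replicate 4 read 12.87 on the log2 scale, where the nearest other miR-1225-3p array read 13.11. The dimmer SNHG7 probe on scrambled replicate 5 read 8.63, where the nearest other scrambled array read 8.11.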

How the results depend on the processing

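With 30 alternatives, SNHG7 kept its call in 24 and SNHG12 in 19, and the estimates of both were above 0 in each. Host genes called numbered 2, where 17% of all genes were called higher. Under the alternatives the share of all genes called higher is in brackets. Host genes numbered 8 after subtraction of the 75th percentile (26.3%), 5 with quantile normalization (20.9%), 0 with no scaling (1%) and 1 with the mean of kept probes (16%). They numbered 6 by the methods' t-test (15.2%), 4 by limma with trend and robust eBayes (17.5%) and 7 with array weights (32.7%, and 67.8% in either direction). They numbered 0 within slide 1 (11.9%), 0 within slide 2 (0%) and 4 with the median of all genes subtracted (20.3%). Within slide 2 without miR-1225-3p replicate 5 they numbered 0 (13.6%). Leaving out 1 array gave 1 to 5 host genes (6.98% to 26.4%). Related genes called numbered 27, where 35% of all genes were called in either direction. With that share in brackets, they numbered 56 after subtraction of the 75th percentile (41.1%), 3 with no scaling (7.28%) and 13 with no filter on dim probes (9.67%). They numbered 44 where the smallest p picked the probe (40.2%), 71 with array weights (67.8%) and 0 within slide 2 (0%). Leaving out 1 array gave 5 to 65 (12.3% to 55.4%). With the replicate number as a block, 0 host genes, 0 related genes and 0 of all genes were called, and SNHG7 had an adjusted p of 0.0519 and SNHG12 of 0.0787 (limma), with 2 of 8 host genes at an unadjusted p under 0.05; the numbers do not pair the arrays. Estimates that changed sign were VIM (0.10) and LARP1 (0.10) after subtraction of the 75th percentile, NOP56 (-0.25) with the mean of its probes, and SNHG3 in the authors' values (-0.038), within slide 2 without replicate 5 (-0.11) and on leaving out 1 array (-0.029 to 0.12). The cause of these changes was not tested.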
